A study of Mus musculus with 41 samples.

Results

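The tumors described here were PLK2null-1975, which the study classed as luminal-like, and PLK2null-7749, PLK2null-1973 and PLK2null-1974, 4 of the 28 Plk2-null and of all 41 mouse mammary tumors in the series. They were set against the other 21 Plk2-null tumors, leaving out PLK2null-732, PLK2null-733 and PLK2null-743, the last of which the study named as claudin-low. The 3 companions of PLK2null-1975 were chosen by their measured values, because their whole profile lay close to it in this same table, so every difference between the 4 and the 21 is a description and was not tested. The series measured gene expression by RNA sequencing of bulk mammary tumors. The Plk2-null tumors, genotype Plk2-/-; p53-/- on balb/c, arose from mammary epithelial cells of double-null mice after these had been placed in the emptied fat pads of wild-type hosts of the same strain. The 13 p53-null tumors, genotype p53-/- on balb/c, kept Plk2 and came from an older bank of transplantable tumors. So the loss of p53 was common to all 41. Tumors grew in the mammary glands of syngeneic hosts without treatment, and no ages were given. The sources do not say whether the 4 tumors arose independently or were passages of a common tumor, so the spread among them may be smaller than that between independent tumors. Host blood vessels, immune cells and connective tissue are part of every bulk sample.

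The receptor tyrosine kinase Met is the receptor for hepatocyte growth factor and drives motility and growth of epithelial cells. In the mammary gland, luminal cells line the ducts and carry the simple keratins Krt8 and Krt18, whereas basal and myoepithelial cells carry Krt5, Krt14, the transcription factor Trp63 and a contractile apparatus. Claudin-low tumors have little of either set of keratins and resemble mesenchyme. Plk2 is a Polo-like kinase of the centrosome and its relative Plk1 drives mitosis.

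Values are the deposited normalized values, on a linear scale on which the upper quartile of the values above 0 was 1000 in a library. Differences are of mean log2(value + 1). The 4 libraries held 35162456 to 53244746 fragments, against 31910235 to 47779530 in the 21 and 29409598 to 70868089 in the p53-null tumors, and 3 fragments corresponded to a value of 1.48 to 2.18 in the 4. These depths were inferred from the value of a single fragment and cover counting error only.

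Met was high in all 4 tumors, at 144361 in PLK2null-1973, 159194 in PLK2null-1974, 201397 in PLK2null-1975 and 184472 in PLK2null-7749. The 21 ran from 419 to 203935 with a median of 76088. Of the 21, 18 lay below the lowest of the 4, but 3 did not, so the groups overlapped and Met did not set the 4 apart. The mean log2 level was 17.38 ± 0.21 (SD, n = 4) and 14.38 ± 3.35 (SD, n = 21), a difference of 3.0.

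Krt8 stood at 38600, 18749, 34956 and 28159 in PLK2null-1973, PLK2null-1974, PLK2null-1975 and PLK2null-7749, within or just above the 4837 to 35801 of the 21. The difference was 0.83, and 10 of the 21 were at or above the lowest of the 4. Krt18, its partner keratin, behaved in the same way, with 16275 to 33943 in the 4 and 2832 to 37086 in the 21. Krt5 was low in the 4, at 5.16 to 47.5, but 9 of the 21 were also at or below the highest of the 4. Trp63 was 9.34 to 86.9 in the 4 against 25.7 to 7601 in the 21. Krt8 and Krt18 were thus not particularly high in the 4, and Krt18 in PLK2null-1974 (16275) was below the median of the 21 (17092). Little Krt5 was shared with part of the 21, and the 4 are called here by their tumor numbers.

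**Figure D1:**
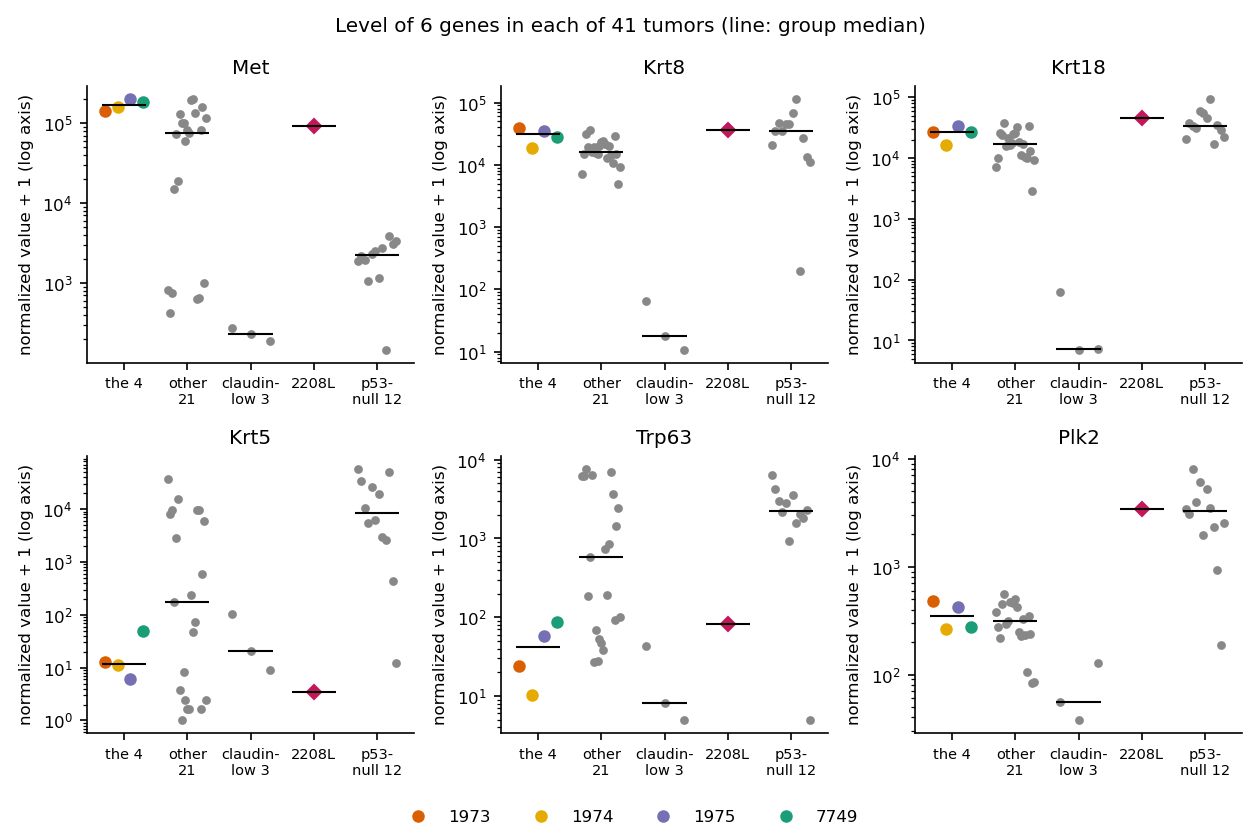
Normalized value + 1 on a log axis of Met, Krt8, Krt18, Krt5, Trp63 and Plk2 in each of 41 tumors, with coloured points for the 4 tumors, a diamond for p53null-2208L, grey points for the other tumors and a line at each group's median. Met in the 4 lay between 144361 and 201397, while the 21 split into a high and a low part, and the 12 other p53-null tumors stayed at or below 3849.

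Likeness was measured as the Pearson correlation over the genes with the largest SD, in the number that the study clustered, after the median of each gene over 41 tumors was subtracted. These correlations are descriptions, share libraries with each other and are part of what chose the 4. The closest pair was PLK2null-1975 and PLK2null-7749 (r = 0.73), followed by PLK2null-1973 and PLK2null-1974 (r = 0.67). PLK2null-1975 lay near PLK2null-1973 as well (r = 0.61) and at r = 0.52 with PLK2null-1974. The most distant pair was PLK2null-1974 and PLK2null-7749, at r = 0.43. For 3 of the 4 tumors no tumor outside the 4 came as close as the most distant of the other members. The exception was PLK2null-7749, to which 4 outside tumors lay closer than PLK2null-1974 did, led by PLK2null-1977 (r = 0.50). No pair of the 4 looked like a library deposited again, since the median chi-square per gene between libraries, on values turned into fragments, was 9.02 for PLK2null-1975 and PLK2null-7749 and 19.4 to 27.8 for the other pairs.

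Outside the 4, PLK2null-7764, PLK2null-1977, PLK2null-1980 and PLK2null-1981 correlated with them at 0.17 to 0.50, and PLK2null-7753, PLK2null-1987, PLK2null-1988 and PLK2null-1989 at 0.15 to 0.46. PLK2null-7747, PLK2null-1963, PLK2null-1964 and PLK2null-1965 lay far away, at -0.36 to -0.21. The luminal-like p53null-2208L correlated at 0.28 with PLK2null-1973, 0.27 with PLK2null-1974, 0.43 with PLK2null-1975 and 0.36 with PLK2null-7749. Among the 37 outside tumors, p53null-2208L ranked 3 for PLK2null-1975, 2 for PLK2null-1974, 8 for PLK2null-1973 and 7 for PLK2null-7749. The nearest outside tumor of both PLK2null-1973 (r = 0.37) and PLK2null-1974 (r = 0.39) was p53null-T11, which the study treated as claudin-low, whereas its correlation with PLK2null-7749 was -0.06.

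**Figure D2:**
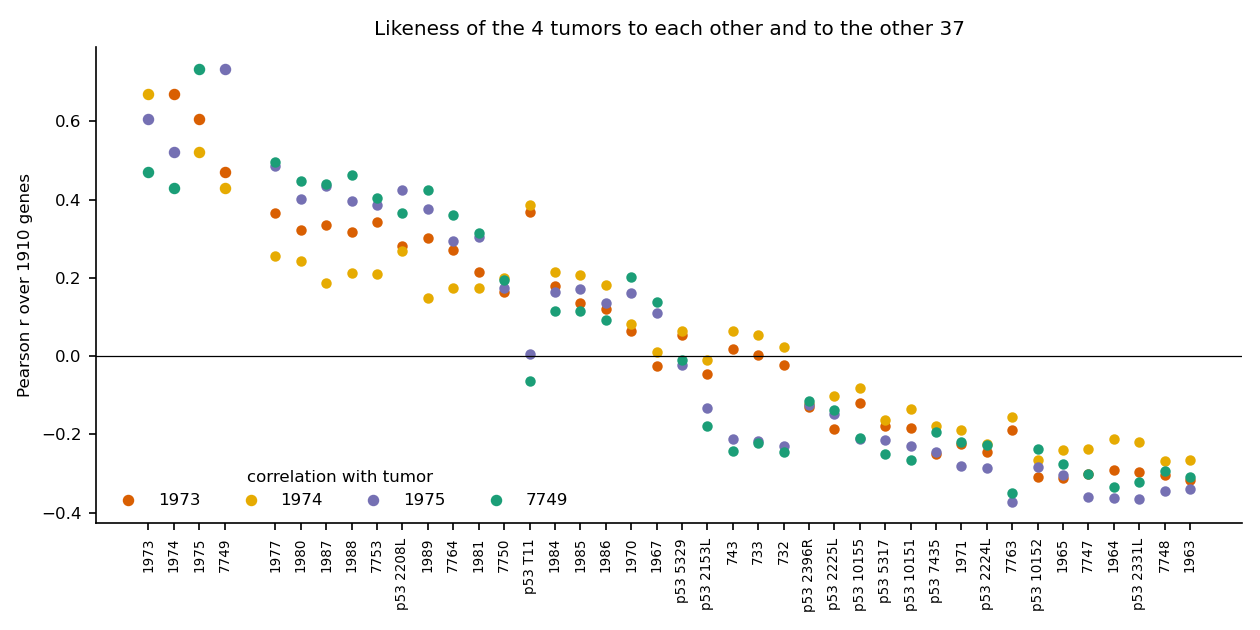
Pearson correlation (vertical axis, no unit) over the most variable genes of each of the 4 tumors (colours) with the other members, at left, and with the 37 remaining tumors ordered by their mean. Correlations within the 4 ran from 0.43 to 0.73, and p53null-T11 stood out for being close to PLK2null-1973 and PLK2null-1974 but not to PLK2null-1975 and PLK2null-7749.

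A gene was called where the 4 tumors and the 21 did not overlap and the means differed by at least 1 on the log2 scale, among 17014 genes with a mean of at least 10. By this rule 32 genes were higher in the 4 (0.188% of those tested) and 43 were lower (0.253%). Because the contrast chose the tumors, nothing is read from these shares. Quantile normalization turned the balance around, with 52 higher and 22 lower. Of the called genes, 24 of the higher and 37 of the lower had the symbol of a known gene, and the higher ones lay on 16 chromosomes.

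The largest named difference was that of Otop1, a proton channel. It stood at 124 in PLK2null-1973, 636 in PLK2null-1974, 464 in PLK2null-1975 and 131 in PLK2null-7749, while none of the 21 passed 10.5 (difference 6.41). Loxl4, an enzyme that cross-links collagen, stood at 1889, 491, 2124 and 1393 in PLK2null-1973, PLK2null-1974, PLK2null-1975 and PLK2null-7749, against 13.4 to 232 in the 21 (difference 4.08). For both genes all 4 tumors lay well above the highest of the 21.

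Padi4, which turns arginine into citrulline in histones and other proteins, had 3914, 2044, 3330 and 1883 in the 4, in the same order, and at most 1832 in the 21 (difference 2.99). Its lowest member therefore lay just above the 21. Trpm6, a magnesium channel with a kinase domain, reached 808 to 1396 in the 4 and 29.3 to 747 in the 21. Ptges, which makes prostaglandin E2, was 7138 in PLK2null-1973, 4761 in PLK2null-1974, 2381 in PLK2null-1975 and 1828 in PLK2null-7749, against no more than 1710 in the 21 (difference 2.33). PLK2null-1973 and PLK2null-1974 were the higher ones here.

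Several genes for cytoskeleton and signalling followed with smaller differences. S100a6, a small calcium-binding protein, was 15595 to 37732 in the 4 and 1050 to 11739 in the 21 (difference 2.18). The guidance ligand Slit2 was 1400 to 2364 against 63.2 to 1366. Il34, a ligand of the macrophage growth factor receptor Csf1r, was 614 to 1536 against 120 to 595. Tnfrsf12a, the receptor for the cytokine TWEAK, was 4203 to 7263 against 604 to 3771. Tspo, a cholesterol-binding protein of the outer mitochondrial membrane, was 2540 to 6784 against 564 to 2373, and the actin-capping protein Capg was 6277 to 12625 against 848 to 5105. Notch2 was the member of the Notch list that was called, at 3801 to 4768 in the 4 and 1290 to 3593 in the 21, with a difference of 1.13 that was close to the limit. Ldha, the glycolytic lactate dehydrogenase, lay just outside the rule, since all 4 tumors (23246 to 32364) exceeded all 21 (at most 22132) with a difference of 0.93.

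A transcript without a gene name, BC024139, had a larger difference than any named gene, 7.06. It stood at 263 in PLK2null-1973, 767 in PLK2null-1974, 3488 in PLK2null-1975 and 1928 in PLK2null-7749, against at most 21.8 in the 21, and it is mentioned here because of those values.

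Among the genes lower in the 4, Prelp, a leucine-rich proteoglycan of connective tissue, stood at 15.8, 26.3, 16 and 17.9 in PLK2null-1973, PLK2null-1974, PLK2null-1975 and PLK2null-7749. The 21 ran from 50.3 to 5442 (difference -4.29). Adam23, a membrane protein without protease activity that binds integrins, was 5.04 to 13.3 in the 4 and 13.5 to 4120 in the 21 (difference -3.73). Its highest member, PLK2null-1973, was at the lower edge of the 21. Armcx2, an armadillo-repeat gene of the X chromosome, was 267, 172, 164 and 79 in the same order, against 504 to 3989 (difference -3.33), with a clear gap. Derl3, which helps to remove misfolded proteins from the endoplasmic reticulum, was 21.7 to 41.5 against 83.8 to 668. Hpgd, the enzyme that breaks down prostaglandins, was 2.91 to 22.2 against 25.4 to 505, so that the enzyme making prostaglandin E2 and the one degrading it lay at opposite ends. Zfp423, a zinc-finger regulator of adipocyte formation, was 14 to 27.6 against 28.4 to 310. The protocadherin Pcdhgb1 was 4.78 to 13.5 against 31.1 to 286, but it shares exons with the rest of its cluster and its reads are not uniquely its own. Abcc12, Prrt1 and Pinc were called as well, at 10 or less in each of the 4, near the limit of detection.

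With PLK2null-732, PLK2null-733 and PLK2null-743 added to the 21, the rule still called 26 of the 32 higher and 30 of the 43 lower genes. Leaving out PLK2null-7749 gave 85 higher and 100 lower genes, and leaving out PLK2null-1974 gave 67 and 71. Leaving out PLK2null-1973 gave 46 and 70, and leaving out PLK2null-1975 gave 43 and 49. In each of these runs fewer tumors had to clear the 21, yet the counts differed with the tumor left out. Why the counts differed was not tested.

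**Figure D3:**
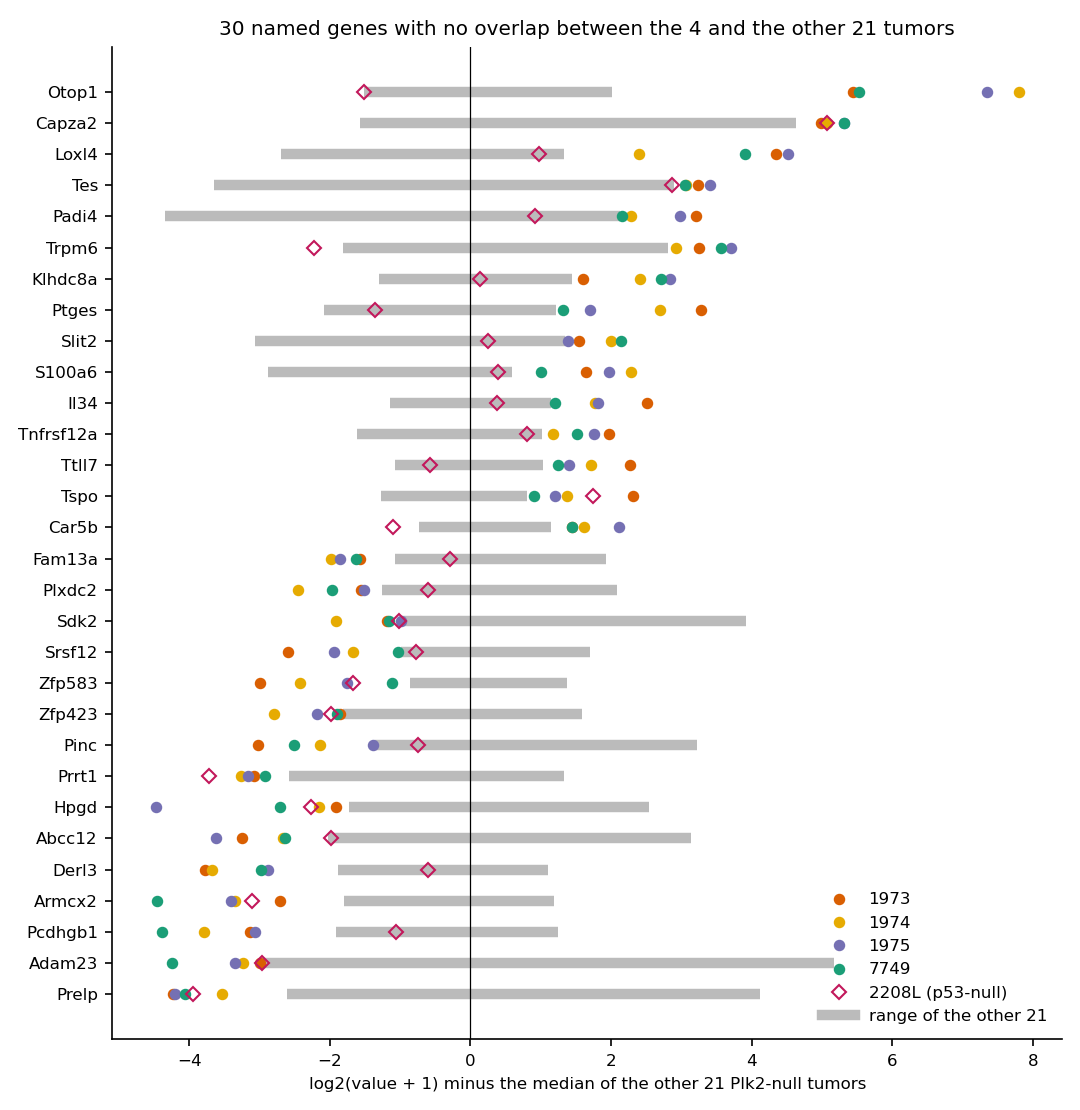
Log2(value + 1) minus the median of the 21 other Plk2-null tumors (horizontal axis) of the 15 named genes per direction with the largest difference, with a coloured point for each of the 4 tumors, a grey bar for the range of the 21 and an open diamond for p53null-2208L. The diamond lay among the 4 for Capza2, Tspo, Prelp and Armcx2 and inside or below the grey bar for Otop1, Loxl4, Trpm6 and Ptges.

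Of the 32 higher genes, 3 (Tes, Capza2 and the predicted gene Gm15594) lay in a stretch of chromosome 6 around Met. In windows of 15 neighbouring tested genes, the highest median difference of 16119 windows was 3.0, at chr6:15720661-17943025 from Mdfic to the predicted gene Gm43844 (GRCm38). The genes around Met were therefore examined gene by gene as the log2 ratio of each tumor to the median of the 12 other p53-null tumors, for protein-coding genes within 10 Mb whose median was at least 50. This layout and its limits were chosen after the values had been seen. Expression was measured, not DNA copy number.

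Tes, a focal adhesion protein (chr6:17065149-17105828), stood at 232444 in PLK2null-1973, 205772 in PLK2null-1974, 260707 in PLK2null-1975 and 204530 in PLK2null-7749, against 1955 to 182140 in the 21 and a median of 3220 in the p53-null tumors. Capza2, a subunit of the protein that caps actin filaments (chr6:17636234-17666972), stood at 178079, 188603, 224265 and 224288, against 1888 to 139548 in the 21. These were levels 5.23 to 6.34 log2 units above the p53-null median. Cav2, a protein of caveolae, was 107359 in PLK2null-1973, 65337 in PLK2null-1974, 114730 in PLK2null-1975 and 56033 in PLK2null-7749. St7, a candidate tumor suppressor, was 7176 to 10024 in the 4 against a p53-null median of 460. Cttnbp2, a cortactin-binding protein, was 4231 to 6336 against 294. The 21 reached 76472 for Cav2, 12269 for St7 and 7948 for Cttnbp2, so for these genes the groups overlapped.

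The ends of the stretch differed among the 4. At the distal end, Lsm8, an RNA-processing protein, stood at 45951 in PLK2null-1974, 59995 in PLK2null-1975 and 53548 in PLK2null-7749 but at 5097 in PLK2null-1973. At the proximal end, Mdfic, an inhibitor of myogenic factors, reached 14231 in PLK2null-1973, 3470 in PLK2null-1974, 1648 in PLK2null-1975 and 881 in PLK2null-7749, against a p53-null median of 807. PLK2null-1973 also had the highest Tmem106b (15336 against 2334 to 3680 in the other members), Tmem168 (5960 against 960 to 1887), Phf14 (6587 against 985 to 2809) and Ndufa4 (19825 against 3479 to 9511), all proximal to Mdfic. So PLK2null-1973 had the highest values on the proximal side and the lowest Lsm8 of the 4, which was still 2.02 log2 units above the p53-null median. Cav1, next to Cav2, did not follow its neighbours evenly, with 91171 in PLK2null-1973, 63396 in PLK2null-1974, 22520 in PLK2null-1975 and 8343 in PLK2null-7749, against a p53-null median of 4973.

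Tes, Cav2, Met, Capza2, St7 and Lsm8 were all at least 8-fold above the p53-null median in PLK2null-1974, PLK2null-1975 and PLK2null-7749, and 5 of these 6 in PLK2null-1973. Among the 21 other Plk2-null tumors only PLK2null-1970 had all 6. In p53null-2208L all 6 were high too, with Met at 93104, Tes at 179017, Capza2 at 189152 and Lsm8 at 45743. None of the 12 other p53-null tumors had any of the 6. p53null-2208L differed from the 4 elsewhere in the stretch. Its Cttnbp2 (141) and Cav1 (3147) were not raised, while Ing3 (8316), Ndufa5 (26249) and Wasl (32834), farther on, were far above their levels in the 4 (311 to 1248, 475 to 814 and 1752 to 3121).

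The other Plk2-null tumors, grouped in earlier results by the likeness of their profiles, mostly had high Met with other neighbours. In PLK2null-7753, PLK2null-1987, PLK2null-1988 and PLK2null-1989, Met was 134498 to 203935 and Tes 92971 to 182140, but Capza2 was 1888 to 2789 and St7 147 to 294. In PLK2null-7750, PLK2null-1984, PLK2null-1985 and PLK2null-1986, Met was 60280 to 83392 and St7 8674 to 10610, but Tes was 4242 to 7402 and Capza2 5293 to 7446. In PLK2null-7764, PLK2null-1977, PLK2null-1980 and PLK2null-1981, Met was 99771 to 128895, Tes 30817 to 42640 and Capza2 10317 to 15962. PLK2null-7747, PLK2null-1963, PLK2null-1964 and PLK2null-1965 had Met at 419 to 810 and none of the 6 genes raised. Met, Tes and Capza2 were also all above the p53-null median in PLK2null-1967 and PLK2null-1971, but by less than in PLK2null-1970.

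**Figure D4:**
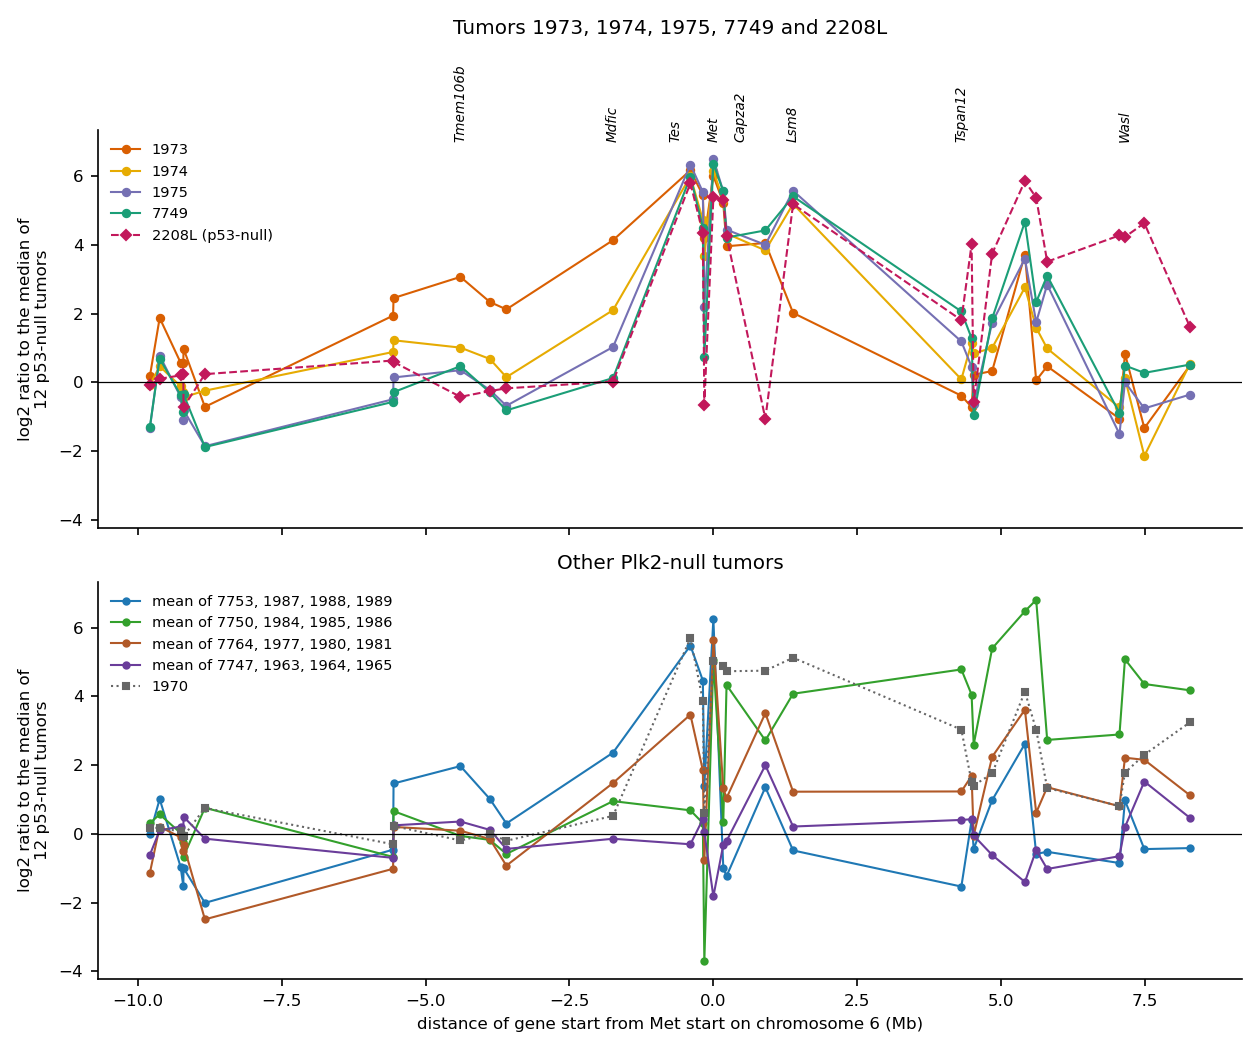
Log2 ratio to the median of 12 p53-null tumors (vertical axis) of protein-coding genes against the distance of their start from the Met start in Mb (horizontal axis), for the 4 tumors and p53null-2208L above, and for PLK2null-1970 and the means of 4 related groups of other Plk2-null tumors below. From Tes to Lsm8 the 4 were high, with Lsm8 lower in PLK2null-1973, and p53null-2208L was high again beyond Tspan12. PLK2null-1970 had all 6 genes high, 3 of the 4 groups were high at Met without all 6, and PLK2null-7747 with its companions was low at Met.

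The bases just before the starts of 3 neighbours that were high together are shown because their transcripts were high together in the 4. They come from RefSeq (GRCm38.p6), read 5′ to 3′ on the + strand and stop before the first start annotated in RefSeq or GENCODE, and capitals mark the GC box, GGGCGG or its reverse complement CCGCCC, searched on both strands. The stretches were chr6:17064899-17065148 for Tes, chr6:17280935-17281184 for Cav2 and chr6:17463707-17463799 for Met.
Tes: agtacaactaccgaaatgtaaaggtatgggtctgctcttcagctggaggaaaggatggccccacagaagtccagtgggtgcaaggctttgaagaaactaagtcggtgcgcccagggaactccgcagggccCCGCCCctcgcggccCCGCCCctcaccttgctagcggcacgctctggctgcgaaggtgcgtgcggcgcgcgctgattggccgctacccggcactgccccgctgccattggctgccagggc
Cav2: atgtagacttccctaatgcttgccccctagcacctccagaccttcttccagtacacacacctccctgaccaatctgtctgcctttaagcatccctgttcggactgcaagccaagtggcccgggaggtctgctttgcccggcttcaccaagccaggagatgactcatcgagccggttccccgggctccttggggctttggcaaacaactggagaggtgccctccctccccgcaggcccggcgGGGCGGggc
Met: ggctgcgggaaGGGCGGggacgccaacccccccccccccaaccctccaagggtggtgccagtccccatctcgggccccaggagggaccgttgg
Tes held 2 GC boxes, Cav2 1 and Met 1. Of 32851 promoters in the RefSeq table, 32.7% held a GC box in the same 250 bases and 9.7% in the shorter stretch used for Met, so the motif is a common one and says nothing particular about these genes.

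The next window on chromosome 6, from Wnt2 to Cped1, had a median difference of 1.58, and other stretches differed less. The third highest window, with a median difference of 1.10, was chr7:142375911-143427042, which holds the imprinted genes H19 and Igf2. H19, a long noncoding RNA, was 7027 in PLK2null-1973, 2585 in PLK2null-1974, 78980 in PLK2null-1975 and 138288 in PLK2null-7749, against 538 to 71374 in the 21. Igf2, the growth factor encoded beside it, was 344, 755, 952 and 21491 in the same order and 0.652 to 8106 in the 21. So H19 was high in the pair PLK2null-1975 and PLK2null-7749, and Igf2 only in PLK2null-7749.

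The lowest window, at chr10:115816832-117224507 close to Mdm2, had a median difference of -1.65, but there the 4 stood near the median of the 21 and a few of the 21 stood far above. Yeats4, for example, was 611 to 768 in the 4, with a median of 904 and a maximum of 64154 in the 21. On chrX:135579555-136711478, a cluster of Bex, Tceal and Armcx genes, the median difference was -1.47. Tceal8 was 340 in PLK2null-1973, 953 in PLK2null-1974, 200 in PLK2null-1975 and 112 in PLK2null-7749, against 288 to 2933 in the 21 and 190 in p53null-2208L. The tumor medians of this window, relative to all 41 tumors, were -0.94 in PLK2null-1973, -0.62 in PLK2null-1974, -2.0 in PLK2null-1975, -1.25 in PLK2null-7749 and -3.08 in p53null-2208L, while those of the 21 were -1.39 to 2.14 and those of the 12 other p53-null tumors -0.61 to 1.91. PLK2null-1975 and p53null-2208L lay below all of the 21, and the other members lay inside their range. A window at the Hoxa cluster (chr6:51857422-52221854) stood at 2.51 in PLK2null-7749 and at 1.39 in PLK2null-1975, among the highest of each. Hoxa5, a positional transcription factor, was 137, 357, 766 and 1044 in PLK2null-1973, PLK2null-1974, PLK2null-1975 and PLK2null-7749.

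Lists of genes by cell type and pathway were then compared, each by the number of members whose difference was at least 1 (4.87% of all genes tested were higher by that much and 9.25% lower) and by its median, beside -0.05 for all genes. Of all genes tested, 45.9% had a difference above 0. In bulk tumors, fewer cells of a type and less RNA per cell cannot be told apart. The luminal list did not set the 4 apart, with a median of -0.05 and 3 of 26 members higher and 4 lower. Within it, Krt7 (6018 to 31205 against 497 to 16749) and the epithelial transcription factor Elf3 (2088 to 2976 against 184 to 2625) leaned higher. Tfap2c (1877 to 5336 against 3845 to 12742) and the prolactin receptor Prlr (513 to 2472 against 681 to 17376) leaned lower.

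The basal and myoepithelial list had a median of -1.23, with 13 of 24 members lower by at least 1 and 3 higher. None of its members was called, where only 0.188% of all genes were called higher and 0.253% lower. The oxytocin receptor Oxtr, a myoepithelial protein, was 11.8 in PLK2null-1973, 4.09 in PLK2null-1974, 8.01 in PLK2null-1975 and 152 in PLK2null-7749, against 22.8 to 14126 in the 21. Acta2, smooth muscle actin, was 700 to 2519 against 1123 to 73590. Krt14 went the other way, at 2462, 714, 4224 and 2709 against a median of 1567 in the 21. The summed list was 32852 to 44468 in the 4, 31641 to 203615 in the 21 and 27665 in p53null-2208L.

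Milk and secretory genes had a median of 0.05, with 3 of 20 higher and 6 lower. Ltf, the iron-binding lactoferrin, was 2370 in PLK2null-1973, 8076 in PLK2null-1974, 14157 in PLK2null-1975 and 10106 in PLK2null-7749, above the 5595 reached in the 21 for 3 of the 4. Lalba, the milk protein alpha-lactalbumin, was 2.34 to 23.3 against 8.93 to 7622. The list of hormone response had a median of 0.06, with 2 of 13 higher and 4 lower.

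The epithelial-mesenchymal list had a median of 0.83, with 13 of 16 members above 0, 4 higher by at least 1 and 1 lower. Its median was 0.46 without PLK2null-1973 and 0.35 without PLK2null-1974. Fn1, fibronectin, was 78256 in PLK2null-1973, 45736 in PLK2null-1974, 119984 in PLK2null-1975 and 48460 in PLK2null-7749 against 1280 to 103931 in the 21, and the transcription factor Twist1 was 1120 to 1529 against 58.7 to 1461. Vim, the mesenchymal intermediate filament, was 35269 and 54918 in PLK2null-1973 and PLK2null-1974, above all 21 (at most 33638), but 17375 and 7623 in PLK2null-1975 and PLK2null-7749. Axl, a receptor tyrosine kinase, showed the same split, with 5750 and 8316 against 2641 and 1898. Snai2, a repressor found in basal cells, was lower (22.6 to 54.9 against 43.6 to 3096). The summed list of fibroblast genes was 156802 in PLK2null-1973, 82483 in PLK2null-1974, 74455 in PLK2null-1975 and 45840 in PLK2null-7749, and 42502 to 353804 in the 21. All 14 fibroblast genes were tested, and none was at 0 in all 4.

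Hypoxia and glycolysis genes had a median of 0.58, with 15 of 16 members above 0 and 3 higher by at least 1, among them hexokinase Hk2 (2644 to 3956 against 304 to 3008). Without PLK2null-1973 the median was 0.37. Interferon response genes had a median of 0.52 with 3 of 24 higher, and PLK2null-1973 stood apart in them, with Ifit1 at 292 against 1113, 1771 and 2420 in the other members. The median of this list moved from 0.52 to 1.07 without PLK2null-1973, to 0.23 without PLK2null-1975 and to 0.22 without PLK2null-7749. Epithelial chemokines and cytokines had a median of 0.57, with 7 of 21 higher and 2 lower. Csf3, the granulocyte growth factor, was 359, 73, 514 and 440 in PLK2null-1973, PLK2null-1974, PLK2null-1975 and PLK2null-7749 against 5.85 to 483.

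All 9 neutrophil genes tested lay above 0 (median 0.95, 4 higher by at least 1). The median was 0.57 without PLK2null-1973 and 1.46 without PLK2null-1974. S100a9, an abundant neutrophil protein, was 1409 in PLK2null-1973, 114 in PLK2null-1974, 1087 in PLK2null-1975 and 847 in PLK2null-7749, so PLK2null-1974 was the low one, and the 21 ran from 59.1 to 852. The summed neutrophil list was 8383, 1419, 3055 and 2588 in the same order and 297 to 14167 in the 21. Mmp9 alone made up 5086, 868, 378 and 174 of these sums in the 4, so the high sum of PLK2null-1973 rested mostly on that gene. No T cell and cytotoxic gene of 14 lay above 0 (median -0.62, 4 lower by at least 1), and their sum was 112 to 613 in the 4 and 132 to 2496 in the 21. Their median was -1.15 without PLK2null-1974 and -0.40 without PLK2null-1975. The adipocyte list, too, lay below 0, with 9 of 9 members lower by at least 1 (median -1.29), and its sum was 314 to 1055 against 385 to 54872. Without PLK2null-7749 its median was -0.85. Macrophage genes had a median of 0.36, endothelial genes -0.34 and pericyte genes -0.47. B cell and plasma cell genes had a median of -0.80, skeletal muscle -0.79 and red blood cell genes -0.92. Without PLK2null-1974 the endothelial median was -0.16 and the pericyte median -0.24, and without PLK2null-1975 the macrophage median was 0.22. The fibroblast median went from -0.18 to 0.31 without PLK2null-7749, to -0.40 without PLK2null-1973 and to -0.04 without PLK2null-1975. The part of these host cells in the differences between the tumors was not tested.

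Among growth pathways, the Met receptor pathway had a median of 0.19, with 2 of 27 members higher and 2 lower. Met itself was the largest. Hgf, the ligand of Met, was low in every tumor (35.9 to 85.1 in the 4 and 16.9 to 103 in the 21). Cd44, a co-receptor for Met in some cells, was 20005 to 28218 against 1955 to 24393. MAPK feedback genes had a median of 0.09 (3 of 18 higher and 1 lower), ErbB receptors and ligands -0.06 (2 of 15 higher, 4 lower), the Notch list -0.29 (1 of 15 higher, 3 lower), the Wnt list 0.01 (4 of 26 higher, 2 lower), p53 targets -0.11 (1 of 18 higher), MHC class I genes 0.01 (none of 13) and proliferation genes -0.06 (none of 24). Without PLK2null-1975 the median of the Met receptor pathway was 0.12, and without PLK2null-7749 it was 0.07. The Notch median was -0.43 without PLK2null-1973 and -0.07 without PLK2null-1974. The medians of the luminal, milk, hormone, ErbB, Wnt, p53, MHC class I and proliferation lists lay near 0 and changed sign when 1 of the 4 tumors was left out. The median of the 13 tested genes listed as Met neighbours was 3.0.

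**Figure D5:**
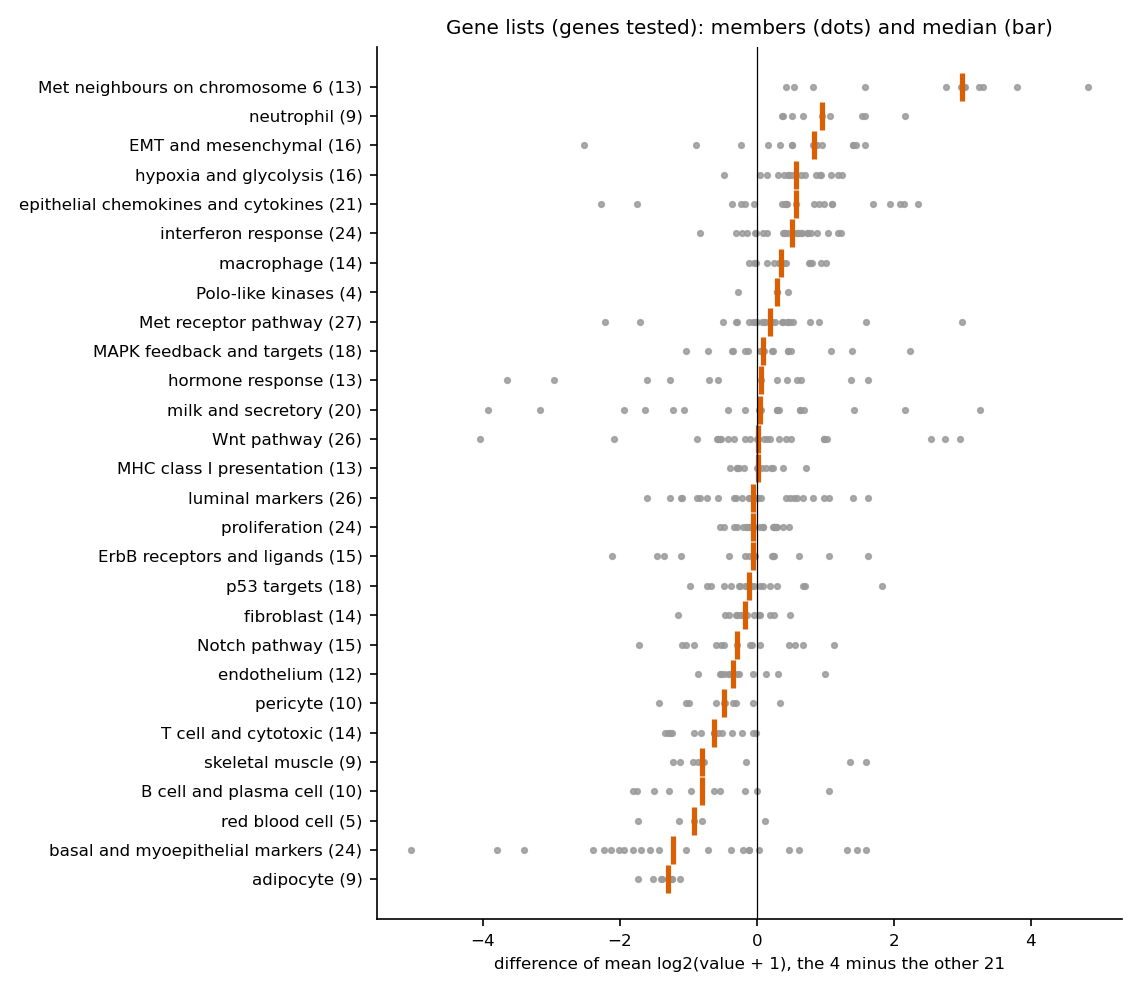
Difference of mean log2(value + 1), the 4 minus the 21 (horizontal axis), for the members of 28 gene lists (grey dots) and their median (orange bar), with the number of genes tested in parentheses. Met neighbours stood at a median of 3.0, neutrophil genes at 0.95, and basal and adipocyte genes at -1.23 and -1.29, while luminal markers and proliferation genes centred near 0.

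p53null-2208L was compared with the 12 other p53-null tumors, which the choice of the 4 had not used. It was the highest of 13 and at least 1 log2 unit above the median of the 12 for 4 of the 32 higher genes, 12.5% (95% Clopper-Pearson interval 3.51% to 29.0%, counting error only), against 2.20% of all genes. These were Tes, Capza2, Padi4 and an unnamed transcript, C130093G08Rik, and the first 2 lie beside Met. It was the lowest of 13 for 7 of the 43 lower genes, 16.3% (6.81% to 30.7%), against 6.17% of all genes. These were Adam23, Prelp, Masp2, Sap25, Zfp13, Prrt1 and Armcx2, all listed here after their values were seen. The genes within a list are not independent of each other.

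p53null-2208L was not the p53-null tumor with the most of these genes. p53null-T11 was highest for 12 of the 32 (37.5%, against 8.27% of all genes) and lowest for 16 of the 43 (37.2%, against 12.9%). The other 11 p53-null tumors were highest for 0 to 2 and lowest for 0 to 5 of them. Set beside the 4 directly, p53null-2208L reached the level of the lowest of the 4 for 5 of the 32 higher genes, p53null-T11 for 15 and the others for 2 to 9. It was at or below the highest of the 4 for 25 of the 43 lower genes, against 30 in p53null-T11 and 4 to 15 in the others. On the lower side p53null-2208L and p53null-T11 had the largest of these counts, and on the higher side p53null-2208L was among the others. The share of all genes at such levels was not computed for any tumor, so nothing more is read from these counts. p53null-2208L lay above the median of the 12 for 20 of the 32 higher genes and below it for 39 of the 43 lower genes, where 44.9% and 54.8% of all genes did so.

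Prelp was low both in the 4 and in p53null-2208L. It was 19.5 in p53null-2208L and 15.8 to 26.3 in the 4, and the 12 other p53-null tumors ran from 68.3 to 12828. Otop1 was high in the 4 but not in p53null-2208L. It was listed at 0 in p53null-2208L and stood at 883 in p53null-T11, which was the highest of the p53-null tumors. Krt5, at 2.38, was the lowest of 13 in p53null-2208L, while its Krt8 (36836) ranked 6 and its Krt18 (45016) ranked 5.

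The 4 were also set directly beside p53null-2208L, the tumor that the study used as the luminal-like control for PLK2null-1975. Genotype goes with the form of the sample titles, since only those of the p53-null tumors carry a ROSEN number. What that number stands for is not given, and any difference that goes with it cannot be told apart from genotype. There is also 1 tumor on one side, so no test was made. All 4 exceeded p53null-2208L by at least 2 log2 units for 631 of 17014 genes (3.71%), and all 4 were below it by as much for 63 (0.370%). For 148 of the 631, p53null-2208L was at or below 3 fragments. The count of higher genes dropped to 203 with a pseudocount of 10. Of the 631, 7 were also called higher than the 21, as were 32 of all 17014 genes (0.188%).

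F5, coagulation factor V, was 668 in PLK2null-1973, 541 in PLK2null-1974, 1924 in PLK2null-1975 and 2864 in PLK2null-7749, against 0.779 in p53null-2208L. Pdk4, a kinase that slows pyruvate oxidation, was 294 to 1022 against 2.73. Greb1, an estrogen-responsive gene, was 135 to 234 against 1.17, and Tenm3, a teneurin adhesion protein, was 274 to 1857 against 6.24. Igf2 was 344 to 21491 against 3.51. The simple keratin Krt19 was 392 to 4438 against 9.74. For Igf2, Pdk4, F5, Krt19, Tenm3 and Greb1, p53null-2208L was the lowest of the 13 p53-null tumors as well.

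In the other direction, Ndufa5, a subunit of respiratory complex I on the distal side of Met, was 475 to 814 in the 4 and 26249 in p53null-2208L, and its neighbours Tmem229a (11.7 to 66.7 against 1387) and Lmod2 (1.68 to 5.09 against 360) followed. Igfbp2, a binding protein for insulin-like growth factors, was 94.6 to 420 against 5740. The posterior Hox genes Hoxa10 (14.6 to 36.4 against 762) and Hoxc9 (5.04 to 16 against 468) were higher in p53null-2208L, as was fibrinogen gamma, Fgg (26.1 to 426 against 4460).

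Plk2 transcript was present but low in the 4, at 479 in PLK2null-1973, 264 in PLK2null-1974, 419 in PLK2null-1975 and 274 in PLK2null-7749, a mean of 359 ± 107 (SD, n = 4). The 13 p53-null tumors had a mean of 3436 ± 2104 (SD, n = 13) and ran from 186 to 8028, and p53null-2208L had 3402. The difference of mean log2 was -2.90 (2-sided exact permutation test over 2380 splits, p = 0.00252, where the smallest possible p is 0.00042). Plk2 is the gene deleted in the 4, so the test only checks the genotype label. The 4 were chosen for alike profiles and may not be independent, so the p-value may be too small. The 1 p53-null tumor below the highest of the 4 was at 186, so the groups overlapped. Genotype and the form of the sample titles differ together in this comparison too. Where the deletion lies in the gene is not given in the sources used here, so transcript reads outside it may remain. The 21 had 83.3 to 553.

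The other Polo-like kinases tested overlapped between the 4 and the 21. None was called, but only 0.188% of all genes were called higher and 0.253% lower. Plk1 was 1450 in PLK2null-1973, 1673 in PLK2null-1974, 822 in PLK2null-1975 and 939 in PLK2null-7749, against 889 to 2098 in the 21 and 1889 in p53null-2208L. Plk4, which starts centriole duplication, was 1397, 1709, 741 and 902 in the same order, against 628 to 1331. Plk3, a stress-responsive member, was 491 to 800 against 177 to 1456. In Plk1 and Plk4 the pair PLK2null-1973 and PLK2null-1974 was above the pair PLK2null-1975 and PLK2null-7749. Trp53 transcript was 1563 to 3235 in the 4 and 1726 to 3914 in the 21.

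Among themselves the 4 differed widely for some genes. Over 16078 genes with a mean of at least 10, the median range was 0.78 log2 units, and 1938 genes (12.1%) had a range of at least 2. The largest was Csn2, beta-casein, with 201 in PLK2null-1973, 15.2 in PLK2null-1974, 102 in PLK2null-1975 and 8895 in PLK2null-7749. Csn1s2a, another casein, was 25.6, 2.92, 51.7 and 1836, so that PLK2null-7749 held the most casein transcript.

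Some genes followed the pairs seen in the correlations. Both PLK2null-1973 and PLK2null-1974 exceeded both PLK2null-1975 and PLK2null-7749 by at least 2 log2 units for 174 genes, and the reverse was true for 31. Gpr149, an orphan receptor, was 1188 and 1619 in PLK2null-1973 and PLK2null-1974 but 10.2 and 2.8 in PLK2null-1975 and PLK2null-7749, and at most 4.32 in the 21. Stmn2, a tubulin-binding protein typical of neurons, was 858 and 4442 against 52.4 and 19.1, and the regulator of G protein signalling Rgs17 was 403 and 708 against 8.01 and 1.68. The sodium-proton exchanger Slc9a2 was 420 and 601 against 14.6 and 0.56.

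In the other direction, Krt19 was 4438 and 3951 in PLK2null-1975 and PLK2null-7749 and 432 and 392 in PLK2null-1973 and PLK2null-1974. Igfbp5, which binds insulin-like growth factors, was 41539 and 66585 against 5932 and 5740, and the acute-phase protein Hp was 5624 and 19321 against 1350 and 401. H19, given above, was also of this kind. Krt19, Igfbp5, Hp, H19 and the split as such were picked after their values had been seen.

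Some genes set 1 tumor apart. Nefl, a neurofilament subunit, was 4443 in PLK2null-1974 and 9.86 to 48 in the others. Ptpn20, a phosphatase, was 250 in PLK2null-1973 and at most 0.584 in the others, and Nup62cl was 244 in PLK2null-1973 and at most 9.93. Igf2bp1, an RNA-binding protein of fetal tissue, was 1227 in PLK2null-1973 and 1171 in PLK2null-1975, 84.1 in PLK2null-1974 and 3.36 in PLK2null-7749, crossing the pairs, and it was 975 in p53null-2208L against at most 20.9 in the 12 other p53-null tumors. PLK2null-1974 exceeded the other members by at least 2 log2 units for 124 genes and PLK2null-1973 for 92, against 33 for PLK2null-7749 and 20 for PLK2null-1975. By that measure PLK2null-1975, the tumor that the study classed, was the least set apart of the 4. It was also lower than the other members for the fewest genes (20, against 46 to 68). The other members were chosen for their closeness to PLK2null-1975, so its central place partly follows from that choice and is not a finding about this tumor.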

How the data were processed

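RNA from mammary tumors was sequenced as paired reads. Per the submitters' processing notes, reads were aligned to mm10 with STAR 2.7.6a and quantified per gene with Salmon 1.4.0, and Picard 2.22.4 and SAMtools were used. The authors scaled each library to its upper quartile, so the deposited table of 47480 genes holds a normalized signal that is not a count. From 77.8% to 80.5% of values above 0 lay within 0.1 of a whole number of fragments, so counts were not recovered and no count model was fitted.

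Groups came from the labels' genotype and the tumor numbers. Replicates were separate tumors, but their independence is not stated. The p-value takes the 4 as separate and measures the spread between these tumors only, so it may be too small. The members and lists were chosen with earlier results of these data known. Differences used log2(value + 1) and a mean of at least 10. The genes named were Met, Krt8, Krt18, Krt5, Plk1 to Plk4 and Trp53, the 15 per direction with the largest difference among called genes that were not predicted, up to 4 called members of each list, the 10 most variable among the 4, the 10 called genes per direction for which p53null-2208L was farthest from the other p53-null tumors, the 10 per direction farthest between the 4 and p53null-2208L, and the called genes of the extreme windows. Genes named outside this rule were members of the lists or windows, chromosome neighbours of Met, or genes said to be picked after their values. Positions came from GENCODE vM21 (GRCm38) for 96.4% of the 17014 genes. Promoter sequences came from RefSeq (GRCm38.p6), and the GC box was searched after the values were seen. H2-L and Ahsp of the lists were not matched. The call rules were tested on simulated data. Python 3.11.15, numpy 2.4.6, pandas 2.3.3 and scipy 1.17.1 were used. The alternatives were another pseudocount, other filters, TMM and quantile scaling, and other sets of tumors. A withheld item that the rule names is not reported here.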

Additional observations from a re-analysis of the deposited data

Results flagged for a closer look

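Of 74 named genes and 28 summed lists examined among the 4 tumors, 3 had a tumor whose gap to its nearest neighbour took a larger part of the whole log2 range than Dixon's 95% critical value. These were 2.9%. Chance alone gives about 1 in 20 independent groups. But 10 of the named genes, Ptpn20 among them, were chosen for their range among these same tumors, and some lists share genes. So these shares are not compared. Ptpn20 was 250 in PLK2null-1973 and 0.584, 0 and 0 in PLK2null-1974, PLK2null-1975 and PLK2null-7749. The summed epithelial-mesenchymal list was 82377 in PLK2null-7749 and 164045 to 176666 in the other members. The summed Wnt list was 20383 in PLK2null-1974 and 39146 to 43109 in the other members. No cause was tested for any of these values.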

How the results depend on the processing

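No paired analysis was possible because the genotypes share no replicate numbers. The count of 32 higher and 43 lower genes against the 21 was 52 and 22 after quantile normalization and 13 and 14 with a difference of at least 2. It was 581 and 1226 with PLK2null-7749 alone against the 6 others whose number begins with 77, and 112 and 135 with the other members against the 15 whose number begins with 19. These last settings use fewer tumors, so fewer have to clear each other. Leaving out each of the 4 gave 43 to 85 higher and 49 to 100 lower genes. The share of higher genes with p53null-2208L highest went from 12.5% to 30.8% with a difference of at least 2, which left 13 genes. Without p53null-T11, p53null-2208L was highest for 15.6% of the higher genes, against 2.63% of all genes. It was then lowest for 23.3% of the lower genes, against 7.98% of all genes. Against p53null-2208L, 631 higher genes became 203 with a pseudocount of 10, 342 after quantile normalization and 365 with a mean of at least 50, and 63 lower genes became 39 with a pseudocount of 10 and 41 with a mean of at least 50. The highest window was 2.76 with 25 genes and 2.81 with a pseudocount of 10, in each case around Met. The lowest was -2.28 with 11 genes, on chromosome X, and -1.41 with 25 genes and -1.36 with a pseudocount of 10, on chromosome 10. The cause was not tested where it does not follow from the setting. No called gene among the 74 named changed direction under any alternative run. With another pseudocount or fewer tumors this was fixed in advance, because the groups of a called gene do not overlap. Only TMM scaling, quantile normalization and the run with tumors added to the 21 could have changed it. Plk2 kept its direction, with p from 0.00252 to 0.00893 in the exact permutation test. TMM and quantile scaling moved the median of all genes by less than 0.1. Values below about 2 rest on 3 fragments or fewer.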
